A study of Mus musculus with 11 samples.

Results

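The expression of genes in the mouse prostate was examined for departures from additivity between an ERG transgene and mutant Trp53. RNA sequencing had measured 11 prostates of C57BL/6 mice aged 15 months, in 4 groups that differed by the presence of each alteration. WT mice (3 libraries) carried neither alteration, Pb-ERG mice (3 libraries) carried the ERG transgene under the probasin promoter, and Trp53pcR172H/- mice (2 libraries) carried 1 Trp53 allele with the R172H substitution and 1 deleted allele in the prostate. Pb-ERG;Trp53pcR172H/- mice (3 libraries), called the combined genotype from here on, carried both alterations. The study calls the tissue sequenced from the combined genotype prostate tumours, and that of the single genotypes prostatic tissue. An effect of the combination and an effect of tumour state thus cannot be told apart. Both the transgene and the Cre recombinase that acts on the Trp53 alleles were driven by the probasin promoter, which is active in prostate epithelium. The R172H allele of the study carried a stop sequence for Cre to remove. The Trp53 alleles of cell types without Cre thus need not match those of WT, and their state was not measured. The study describes its WT mice as littermates and dropped a mouse of the Trp53pcR172H/- group because its data were poor. Nothing in the labels says more of the replicates than their numbers, so p-values measure the spread between these libraries.

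All 11 libraries and 15583 of 29291 listed loci entered the comparison, those with a value of at least 1 FPKM, which scales fragments by gene length and library total, in at least 2 libraries. The change of each gene from WT was taken between the means of log2(FPKM + 1) in each group. The interaction of a gene is the change in the combined genotype minus the sum of the changes in Pb-ERG and in Trp53pcR172H/-. An interaction of 0 means that the alterations added up on the log2 scale, and an interaction of 1 means that the combined genotype lay 2-fold above the level that this sum gives. Because the single-genotype changes enter with a minus sign, noise in a single genotype pushes the interaction the other way.

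ERG is a transcription factor of the ETS family, which bind DNA through a shared domain, and fusions that put it under androgen control are common in prostate cancer. The protein p53 halts the cell cycle or triggers death after DNA damage, and the R172H substitution lies in the DNA-binding domain and weakens its binding to its usual targets. Mutant forms of p53 often build up in tumour cells, and some are described as gaining functions of their own.

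The libraries held between 14280978 and 51965100 fragments. Between 60.3% and 95.5% of these lay in the listed genes, with the lowest shares in Pb-ERG replicate 2 (60.3%) and replicate 2 of the combined genotype (74.8%). Small non-coding RNA (Rn7sk, Rmrp and Rpph1 summed) took 4.67% to 10.3% of the fragments in the 3 libraries of the combined genotype and 0.886% to 1.57% in Pb-ERG. They took 1.69% to 5.55% in WT and 1.67% and 7.06% in Trp53pcR172H/-. The share was thus lowest in Pb-ERG but overlapped between WT, Trp53pcR172H/- and the combined genotype, and its part in the interaction was not tested beyond a fit with the share as a 2-level factor, given beside the results.

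Prostate epithelial transcripts were present in every library, with Epcam at 150 to 606 FPKM and Hoxb13 at 58.8 to 212 FPKM, and Erg followed the labels. Erg had 0.479, 0.851 and 0.457 FPKM in WT, 9.14, 5.81 and 11.5 FPKM in Pb-ERG, 0.441 and 0.768 FPKM in Trp53pcR172H/-, and 19.6, 9.21 and 6.65 FPKM in the combined genotype. Every library with the transgene was above every library without it, and the groups with and without mutant Trp53 overlapped. The interaction of Erg was 0.29 ± 0.52 (SE), with an adjusted p of 0.938 by limma. Trp53 had 4.78, 2.96 and 3.69 FPKM in WT, 6.36, 7.58 and 7.74 FPKM in Pb-ERG, 3.15 and 2.55 FPKM in Trp53pcR172H/-, and 4.90, 6.66 and 5.22 FPKM in the combined genotype. Its interaction was -0.02 ± 0.29 (SE, adjusted p = 0.996), and FPKM over the whole gene do not separate the mutant from the normal allele. The departures described next were thus measured at Erg FPKM that overlapped between the transgenic groups. Reads were aligned to the mouse genome, and these FPKM do not separate the transgene from the Erg gene of the mouse itself. They do not settle whether the transgene was equally expressed in both groups.

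Departures from additivity were mostly upward. At an adjusted p under 0.05, 73 genes (0.468% of those tested by limma) were called, 70 above additivity (0.449%) and 3 below it (0.0193%). At an adjusted p under 0.001, the false discovery rate that the study used for its own comparisons, limma called 0 genes (0%), while 1562 genes (10%) had an unadjusted p under 0.05. Of these 1562 genes, 73% lay above additivity. The share above was 60.2% when FPKM were rescaled by median-of-ratios factors and 50.6% when they were rescaled by upper-quartile factors, so the balance of directions among weakly supported genes depended on the scaling. These rescalings moved the median interaction of all genes from 0.07 to -0.01 and to -0.08, whereas the called genes divided into 54 above and 5 below and into 22 above and 2 below. Limma-voom on the recovered fragments called 0 genes at either threshold, with 1363 genes at an unadjusted p under 0.05.

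**Figure D1:**
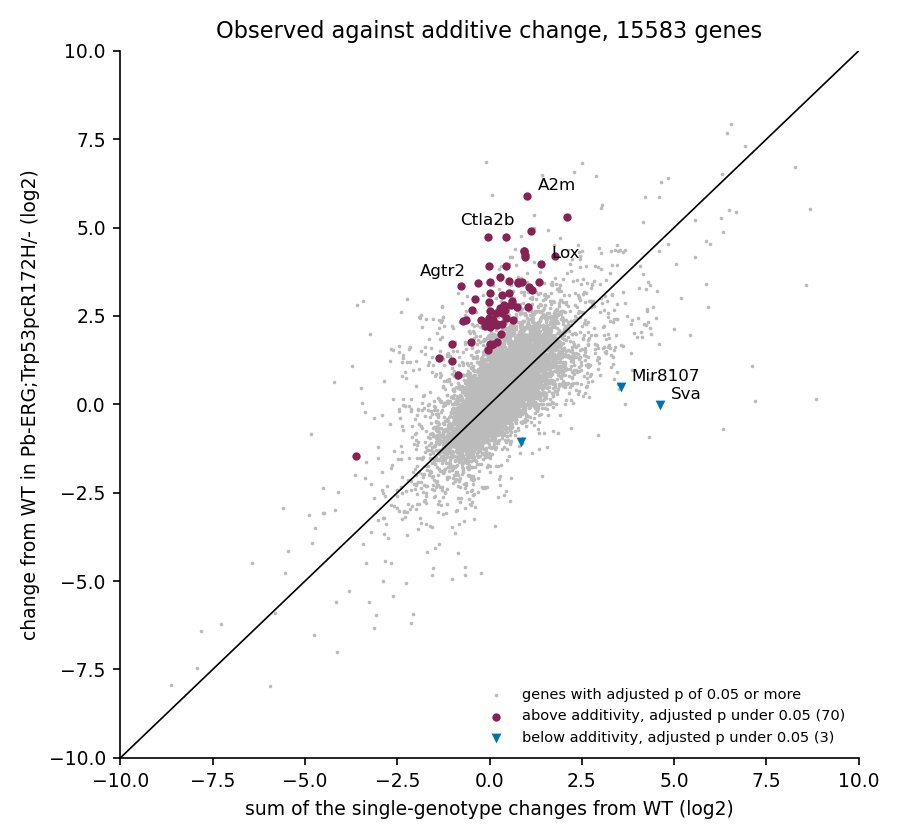
Each point is 1 of 15583 genes, with the sum of its changes from WT in Pb-ERG and Trp53pcR172H/- on the x axis and its change from WT in the combined genotype on the y axis, both in log2 units. The line marks additivity, and the 70 genes called above it lie mostly near 0 on the x axis, while Sva and Mir8107 lie below it.

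Of the 73 called genes, 39 had changed by under 0.5 in both single genotypes, and the share of all genes that did so was not computed. The median change from WT of the 70 genes above additivity was 0.20 in Pb-ERG, 0.01 in Trp53pcR172H/- and 2.73 in the combined genotype, and their interactions ran from 1.56 to 4.88 with a median of 2.42. A call above additivity favours a layout with the 3 libraries of the combined genotype above all 8 others. That layout is thus no separate support. It was found for 69 of the 70 genes and for 11.9% of all genes tested. The exception was the predicted gene Gm5514, chosen here after its values were seen. It had 2.95, 3.61 and 2.48 FPKM in WT, at most 0.312 FPKM in the single genotypes, and 1.04, 0.12 and 0.311 FPKM in the combined genotype, with an interaction of 2.16 (adjusted p = 0.0407), so that both single genotypes and the combination lay below WT. All 73 called genes kept their direction when additivity was taken on linear FPKM. So did nearly all genes with an interaction of at least 1 in size, 1109 of 1115 above additivity and 573 of 592 below it. In bulk tissue, a change in the number of cells of a type and a change in RNA per cell cannot be told apart, which holds for every gene named here.

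Above additivity, genes reached in the combination alone formed the largest class. Genes with an interaction of at least 1 in size numbered 1115 above additivity (7.16%) and 592 below it (3.8%). They were sorted by whether a single genotype had moved the gene by at least 0.5. Of the 1115 genes, 533 had been moved by neither alteration alone, 271 enlarged a change already seen in Pb-ERG, 195 reversed or reduced such a change, 29 enlarged a change of Trp53pcR172H/- and 87 reduced one. Of the 592 genes, 253 reduced an ERG change, 119 were reached in the combination alone, 106 enlarged an ERG change, 101 reduced a Trp53 change and 13 enlarged one. The share of all genes tested with changes under 0.5 in both single genotypes was not computed. The size of the class of the combination alone is thus not set against a background. These classes rest on means and many of their genes were weakly supported. An unadjusted p under 0.05 was reached by 431 of the 533 upward genes of the combination alone, but by 75 of the 253 downward genes that reduced an ERG change and by 70 of the 119 downward genes of the combination alone. The combined libraries were apart from all others in 435, 8 and 60 of these. The called genes divided in the same order upward, with 39 reached in the combination alone, 21 enlarging an ERG change, 6 reducing one, 1 enlarging a Trp53 change and 3 reducing one. Of the 3 genes called downward, 2 reduced a Trp53 change and 1 reduced an ERG change.

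**Figure D2:**
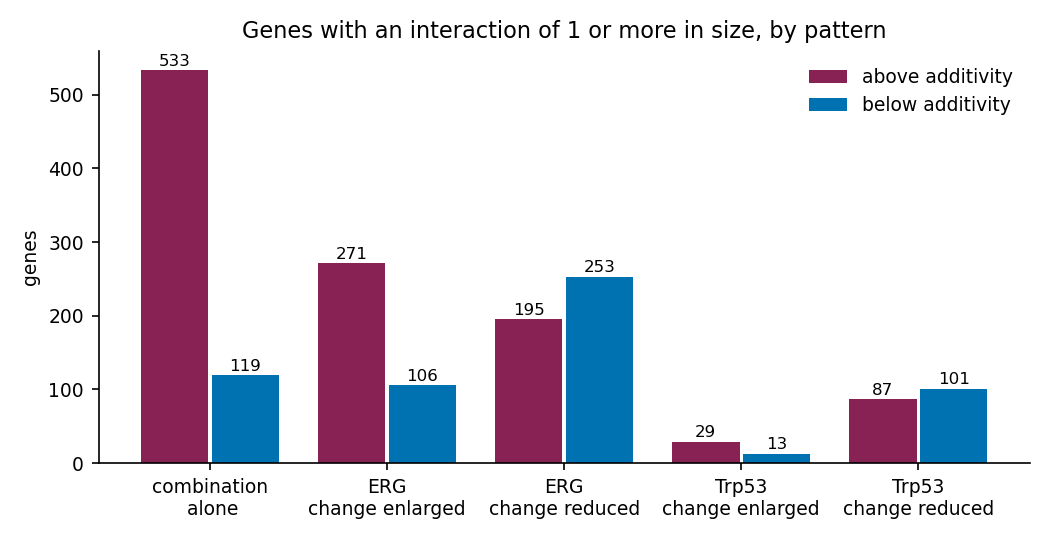
Bars count the genes with an interaction of at least 1 in size, by the pattern of their changes from WT and by direction. Above additivity 533 genes were reached in the combination alone, whereas below it the largest class, of 253 genes, reduced a change seen with ERG.

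Hormone and vasoactive signalling supplied 2 of the clearest genes of the combination alone. Agtr2, which encodes the angiotensin II type 2 receptor, lies on chromosome X (GRCm38, chrX:21484544-21489164). It had 0.0578, 0.168 and 0.0964 FPKM in WT, 0.0968, 0.176 and 0.0717 FPKM in Pb-ERG, 0.194 and 0.0427 FPKM in Trp53pcR172H/-, and 9.14, 9.16 and 16.1 FPKM in the combined genotype. No library outside the combined genotype came near its 3 libraries. The interaction was 3.43 ± 0.33 (SE, adjusted p = 0.00328). Dio3, the deiodinase that inactivates thyroid hormone (chr12:110279068-110281097), had 0.257, 0.666 and 0.53 FPKM in WT and 0.254, 1.04 and 0.464 FPKM in Pb-ERG. It had 0.517 and 0.276 FPKM in Trp53pcR172H/- and 13.6, 23.2 and 29.9 FPKM in the combined genotype. The groups did not overlap with the combined genotype here either, and the interaction was 3.92 ± 0.43 (adjusted p = 0.00594).

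To show the start regions of these genes beside those of 2 genes of DNA synthesis described later, the 250 bases before the start annotated in RefSeq (GRCm38.p6) are given. The deposited loci start earlier, so the last 80 bases of the window lie inside the locus for Agtr2, 162 for Dio3, 13 for Rrm2 and 86 for Pclaf. Capitals mark matches, on either strand, to CCAAT, the letters of the CCAAT box (ATTGG on the other strand), and to TTTGAA, the letters of the cell cycle homology region (CHR) found in many mitotic promoters.
Agtr2 (chrX:21484374-21484623, + strand): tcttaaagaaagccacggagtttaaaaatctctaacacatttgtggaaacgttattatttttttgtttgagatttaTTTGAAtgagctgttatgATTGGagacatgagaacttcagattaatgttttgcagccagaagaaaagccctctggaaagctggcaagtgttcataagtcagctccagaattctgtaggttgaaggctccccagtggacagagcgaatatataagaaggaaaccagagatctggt
Dio3 (chr12:110278980-110279229, + strand): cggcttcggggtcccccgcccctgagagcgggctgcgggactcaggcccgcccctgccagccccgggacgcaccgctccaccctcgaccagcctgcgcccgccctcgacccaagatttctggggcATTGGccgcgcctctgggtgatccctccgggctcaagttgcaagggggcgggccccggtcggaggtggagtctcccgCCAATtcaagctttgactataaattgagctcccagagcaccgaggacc
Rrm2 (chr12:24708004-24708253, + strand): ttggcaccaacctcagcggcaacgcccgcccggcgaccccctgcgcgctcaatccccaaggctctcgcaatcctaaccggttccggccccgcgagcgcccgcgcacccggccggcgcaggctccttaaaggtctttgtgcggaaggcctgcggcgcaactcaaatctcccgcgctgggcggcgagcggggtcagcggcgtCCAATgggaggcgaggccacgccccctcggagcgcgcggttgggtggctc
Pclaf (chr9:65890073-65890322, + strand): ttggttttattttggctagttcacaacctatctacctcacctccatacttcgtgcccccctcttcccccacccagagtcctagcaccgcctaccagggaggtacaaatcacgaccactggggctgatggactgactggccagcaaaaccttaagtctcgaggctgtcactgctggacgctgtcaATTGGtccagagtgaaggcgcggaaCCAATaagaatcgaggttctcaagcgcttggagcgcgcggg
The 4 windows each held CCAAT in at least 1 orientation, as did 37.5% of all 27025 promoters of this length. Over the genes with a promoter in the reference, CCAAT was present for 29 of 40 mitosis genes (72.5%), 23 of 34 replication genes (67.6%), 17 of 41 genes called above additivity (41.5%) and 39.7% of all genes tested. TTTGAA was present for 13 of 40 mitosis genes (32.5%), 4 of 41 called genes (9.76%) and 13% of the genes tested. The ETS letters CCGGAAGT and ACCGGAAG were present for 8 of 34 replication genes (23.5%), 4 of 40 mitosis genes (10%), 1 of 41 called genes (2.44%) and 8.07% of the genes tested. These are matches of letters in a fixed window and were not tested.

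Proteases, protease inhibitors and immune-related genes held the gene with the smallest p. Ctla2b, a homologue of the propeptide of cathepsin-like proteases (chr13:60895351-60897447), had 0.704, 1.55 and 0.938 FPKM in WT and 4.81, 3.29 and 4.89 FPKM in Pb-ERG. It had 0.555 and 0.855 FPKM in Trp53pcR172H/- and 62.3, 62.6 and 55.7 FPKM in the combined genotype. The Pb-ERG libraries stood above WT, Trp53pcR172H/- did not, and the combined genotype was far above both. Its interaction of 3.79 ± 0.31 had an adjusted p of 0.00154. The inhibitor A2m, a broad trap for proteases, had at most 0.0542 FPKM in WT and 47.4, 87.2 and 55.1 FPKM in the combined genotype, with 0.051, 3.3 and 0.664 FPKM in Pb-ERG and 0.266 and 0.015 FPKM in Trp53pcR172H/-. Its interaction of 4.88 ± 0.64 was the largest of the called genes (adjusted p = 0.0138), while limma-voom gave an adjusted p of 0.565. Serpinb6b, an intracellular serine protease inhibitor, had 1.32, 0.812 and 1.16 FPKM in WT, 1.86, 1.13 and 0.877 FPKM in Pb-ERG, 1.0 and 0.192 FPKM in Trp53pcR172H/-, and 24.5, 16.1 and 24.7 FPKM in the combined genotype. The Pb-ERG libraries overlapped WT, those of Trp53pcR172H/- did not exceed it, and the interaction was 3.74 ± 0.39 (adjusted p = 0.00455).

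**Figure D3:**
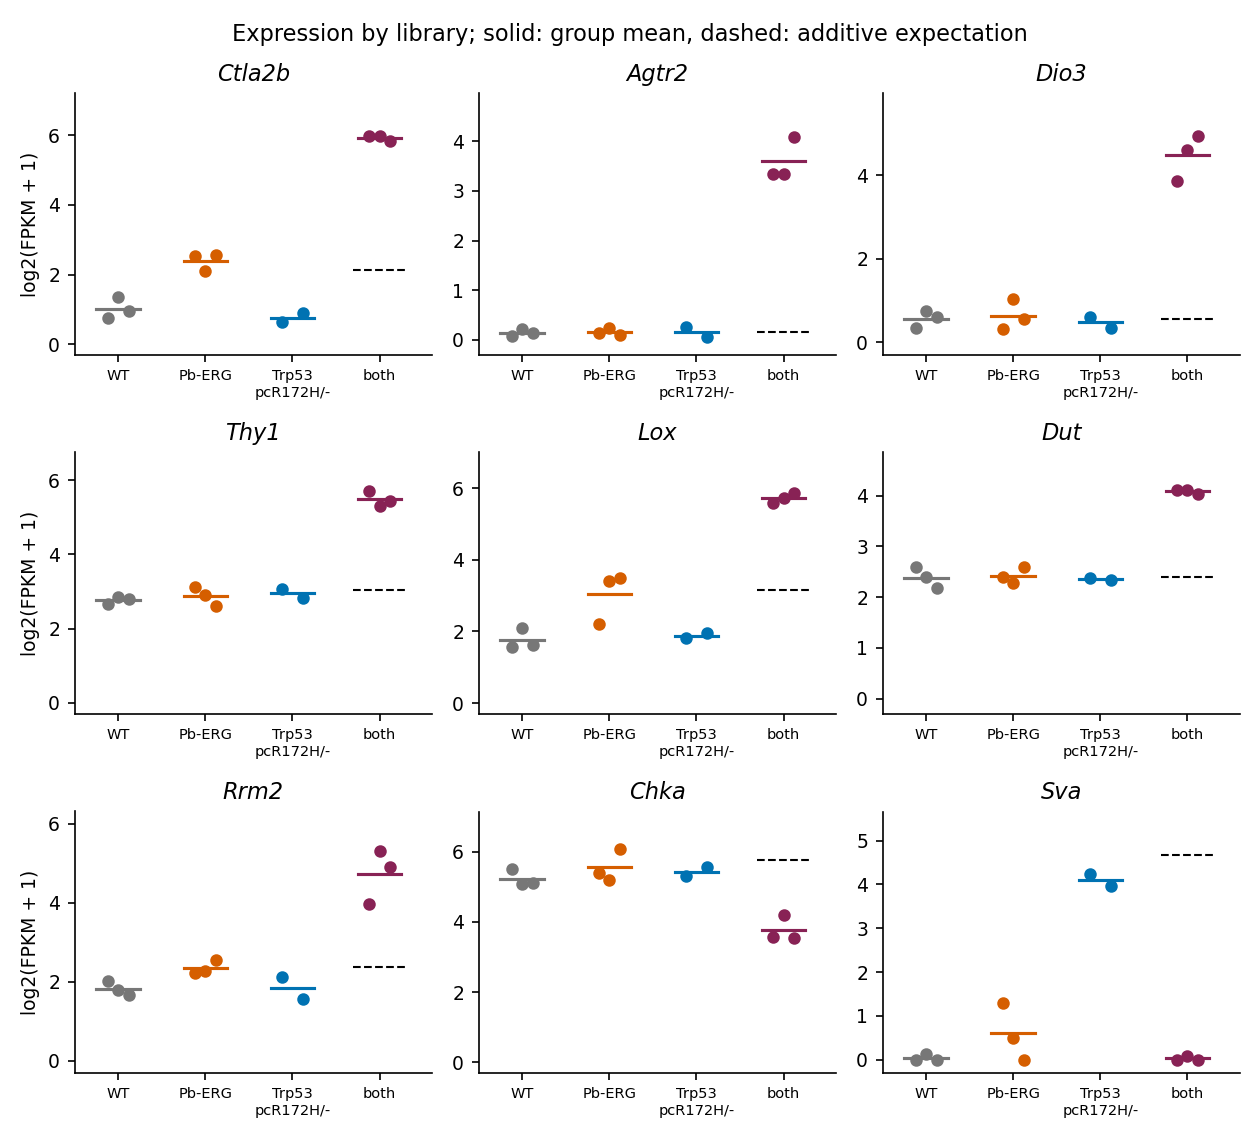
Points are libraries, in log2(FPKM + 1), grouped by genotype, with a solid bar for each group mean and a dashed bar for the additive expectation of the combined genotype. In 7 genes the combined libraries lie above the dashed bar, and in Chka and Sva they lie below it.

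Serpina1b, one of several nearly identical alpha-1-antitrypsin genes, had at most 0.383 FPKM in the 8 other libraries and 97.3, 24.7 and 13 FPKM in the combined genotype (interaction 4.78, adjusted p = 0.0341). Reads of its copies cannot be told apart with certainty, and its locus overlaps Serpina1d and Gm8893. Tdo2, which opens the tryptophan ring, had 0.414, 0.701 and 0.425 FPKM in WT, 0.40, 2.05 and 0.936 FPKM in Pb-ERG, 0.801 and 0.306 FPKM in Trp53pcR172H/- and 55.3, 57.9 and 18.5 FPKM in the combined genotype. The 3 combined libraries exceeded all others. The interaction was 4.29 ± 0.62 (adjusted p = 0.0184). Aoc1, the diamine oxidase that degrades histamine and polyamines, was at most 0.361 FPKM outside the combined genotype and 11.3, 25.2 and 10.8 FPKM within it (interaction 3.46, adjusted p = 0.00942). By limma-voom the adjusted p of Aoc1 was 0.454. S100a14, a calcium-binding protein of epithelia, had 1.74 to 4.76 FPKM outside it and 139, 48.8 and 45.5 FPKM within it (interaction 3.41, adjusted p = 0.0367).

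The U3 small nucleolar RNA gene Rnu3b1, whose product takes part in ribosomal RNA processing, had 1.32, 2.84 and 0.586 FPKM in WT, 0.368, 0.624 and 0.363 FPKM in Pb-ERG, 0.884 and 1.95 FPKM in Trp53pcR172H/-, and 29.1, 14.7 and 31.3 FPKM in the combined genotype. The interaction was 4.14 ± 0.53 (adjusted p = 0.0138), the locus lies within Tex14, and 2 to 142 fragments per library stood behind these values. Other called small RNA genes were Terc, the RNA template of telomerase (interaction 2.61), and the predicted small RNA genes Gm23650 (2.69) and Gm23751 (3.14). Within the combined genotype Rnu3b1 had 14.7, 29.1 and 31.3 FPKM at small non-coding RNA shares of 4.67%, 6.69% and 10.3%. WT replicate 2 (5.55%) and Trp53pcR172H/- replicate 2 (7.06%) had 2.84 and 1.95 FPKM, the highest values of their groups. The part of this share in Rnu3b1 was not tested beyond the factor given below. The median interaction of Rn7sk, Rpph1 and Rmrp was 2.42 with 0 of 3 called. With the share as a 2-level factor the interaction of Rnu3b1 was 3.43, with an adjusted p of 0.0976.

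Among the called genes, several that build or remodel extracellular matrix stood out after their values were seen, and the genes of this paragraph and the next were named on that basis. Lox and Loxl1 crosslink collagen and elastin. Lox had 1.98, 3.24 and 2.09 FPKM in WT, 3.64, 9.51 and 10.2 FPKM in Pb-ERG, 2.49 and 2.88 FPKM in Trp53pcR172H/-, and 46.9, 51.5 and 57.4 FPKM in the combined genotype. Pb-ERG stood above WT and the combined genotype above both, with an interaction of 2.57 ± 0.46 (adjusted p = 0.0431). Loxl1 had 15.4 to 21.2 FPKM in the combined genotype and 1.55 to 4.23 FPKM elsewhere (interaction 2.0, adjusted p = 0.0184). The collagen chaperones Serpinh1 and Fkbp10 had interactions of 2.36 and 1.61. The proteases Mmp2, Adamts4 and Adam12 had interactions of 2.68, 2.23 and 2.06, and the matrix proteins Thbs2, Tnc and Vcan had 3.26, 2.69 and 2.31.

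Signalling and stress genes were also among those called. Cdkn2a, which encodes the p16 and p19Arf tumour suppressors, had at most 0.162 FPKM in WT, 0.373, 1.69 and 2.68 FPKM in Pb-ERG, 1.55 and 0.837 FPKM in Trp53pcR172H/-, and 61.7, 40.4 and 30.7 FPKM in the combined genotype. Each single genotype lay above WT, and the sum of their log2 changes was exceeded by 3.21 (adjusted p = 0.0334). With single-genotype levels this low the value depends on the added 1 FPKM, and it was 2.34 with 0.1 added (adjusted p = 0.402) and 1.58 by limma-voom (adjusted p = 0.833). Cyp11a1, which starts steroid hormone synthesis from cholesterol, had at most 0.0597 FPKM in WT, at most 1.41 FPKM in the single genotypes and 21.3, 27.3 and 12.9 FPKM in the combined genotype (interaction 3.40, adjusted p = 0.0138). Its levels outside the combined genotype were likewise low, and its adjusted p by limma-voom was 0.765. The hydroxylase Cyp1b1 had an interaction of 2.34, the gap junction protein gene Gja1 3.22, the growth factor gene Pdgfc 1.94, the endothelin receptor gene Ednra 2.23, the thrombin receptor gene F2r 2.41 and Igfbp3, a carrier of insulin-like growth factors, 2.41. The inflammasome protease gene Casp1 had 2.24. Mt4, a metallothionein of stratified epithelia, had 53, 50 and 117 fragments in the combined genotype and 0 in each of the 8 other libraries.

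Hand2, a transcription factor of developing heart and limb, was called together with 2 neighbouring loci. It had 0.935 to 1.32 FPKM in WT, 1.01, 0.267 and 0.105 FPKM in Pb-ERG, and 14.3, 15.2 and 4.68 FPKM in the combined genotype, with an interaction of 3.04 (adjusted p = 0.0462). The unnamed loci RP24-459A4.1 and RP24-459A4.3 beside it had interactions of 3.07 and 3.37. Wt1, a factor of mesothelium and urogenital stroma, had 0.508 to 1.63 FPKM in the 8 other libraries and 8.82, 14.6 and 7.29 FPKM in the combined genotype (interaction 2.45, adjusted p = 0.0421). The complement-like genes C1qtnf1, C1qtnf5 and C1qtnf7 had 2.22, 2.25 and 2.43, and Gm11747, which overlaps C1qtnf1, had 1.99. Overlapping or adjacent loci can share reads where the counting ignores strand, and 24 of the 73 called genes overlap another listed locus.

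A smaller set turned the direction of a single-genotype change. Csrp2, a LIM protein of smooth muscle and stroma, had 16.9, 13.6 and 9.18 FPKM in WT, 7.43, 7.59 and 7.30 FPKM in Pb-ERG, 18.4 and 25.8 FPKM in Trp53pcR172H/- and 101, 82.3 and 76.5 FPKM in the combined genotype. Pb-ERG lay below WT, Trp53pcR172H/- above it and the combined genotype above both, with an interaction of 2.65 (adjusted p = 0.0138). Angptl4, an inhibitor of lipoprotein lipase, was at 1.05 to 1.49 FPKM in Pb-ERG against 1.66 to 3.82 in WT, and at 6.50 to 9.49 FPKM in the combined genotype (interaction 2.24, adjusted p = 0.0321). Ubtd2, of the ubiquitin-domain family, and Spon2, a secreted matrix protein, had lower means in Trp53pcR172H/- than in WT and interactions of 1.68 (adjusted p = 0.0341) and 2.7 (adjusted p = 0.0443).

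Downward departures with a call were 3. Sva, a secretory gene of the seminal vesicle (chr6:42038394-42042851), had 0, 0.0944 and 0 FPKM in WT, 1.46, 0.414 and 0 FPKM in Pb-ERG, 17.9 and 14.6 FPKM in Trp53pcR172H/-, and 0, 0.0566 and 0 FPKM in the combined genotype. The Trp53pcR172H/- libraries were high and all others low, and the interaction was -4.63 ± 0.43 (adjusted p = 0.00283). The summed level of the seminal vesicle markers did not follow this order. It was 286 to 12240 FPKM in WT, 68.7 to 28410 in Pb-ERG, 3780 and 10910 in Trp53pcR172H/- and 94.7 to 706 in the combined genotype. The median changes of the 9 markers from WT were 0.80 in Pb-ERG, 4.06 in Trp53pcR172H/- and -0.02 in the combined genotype. Sva is itself a marker, and the last 2 medians are its own values. In Trp53pcR172H/-, Svs1, Svs3a, Svs3b, Svs4 and Svs6 changed by 2.9, 6.3, 5.5, 5.4 and 5.3, and Svs5 by 0.52. In the combined genotype these 5 changed by 0.002, 0.14, 0.09, 1.09 and -0.71, and Svs5 by -5.0. Svs2 and Pate4 went the other way in Trp53pcR172H/- (-3.87 and -1.90). All 9 markers were tested. Of these 6, Sva among them, had an unadjusted p under 0.05 below additivity (2.7% of all genes). An interaction of -1 or lower was reached by 7, while Svs2 and Pate4 had 0.67 and 1.30. Svs3a and Svs3b are nearly identical, and Svs3b had 39.8 FPKM in Pb-ERG replicate 1 against 0.647 and 0.252 in the other two. The part of adjoining seminal vesicle tissue in these values was not tested.

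The microRNA locus Mir8107 had 0.406, 0 and 0.541 FPKM in WT, 2.38, 8.72 and 5.71 FPKM in Pb-ERG, 2.17 and 2.39 FPKM in Trp53pcR172H/- and 0.455, 1.26 and 0.814 FPKM in the combined genotype. Each single genotype was above WT and the combined genotype overlapped neither single genotype, with an interaction of -3.08 (adjusted p = 0.0367). The values rest on 0 to 53 fragments per library. They fall on a hairpin inside Nbeal2, whose own interaction was -1.06 (adjusted p = 0.534), and libraries of this kind do not select mature microRNAs. Its mature sequence in RefSeq (chr9:110636065-110636085, - strand, GRCm38.p6), with the seed at bases 2 to 8 in capitals, identifies the locus.
mmu-miR-8107: uGGAAACUaguggcugggaca
The third gene was Ccdc3, a secreted coiled-coil protein, chosen after its values were seen since its level was under the rule. It had 2.32 to 4.05 FPKM in WT, 2.94 to 4.55 in Pb-ERG, 5.28 and 4.17 in Trp53pcR172H/- but 0.538, 0.896 and 1.21 FPKM in the combined genotype, with an interaction of -1.92 (adjusted p = 0.0421).

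The genes of next smallest p below additivity missed the threshold. Chka, the first enzyme of phosphatidylcholine synthesis (chr19:3851797-3894369), had 44.4, 32.7 and 33.7 FPKM in WT, 41.3, 35.5 and 67.1 FPKM in Pb-ERG, 38.9 and 46.0 FPKM in Trp53pcR172H/- and 10.8, 17.3 and 10.7 FPKM in the combined genotype. The combined libraries lay below all others (3.9% of all genes), with an interaction of -2.00 ± 0.42 (adjusted p = 0.0769). Slc9a2, a sodium-proton exchanger, had 49.97 to 63.8 FPKM in WT and 3.21, 6.68 and 9.14 FPKM in the combined genotype (interaction -2.10, adjusted p = 0.0807). Otud7a, a deubiquitinase, had an interaction of -1.64 (adjusted p = 0.0592). The long non-coding genes Gm13594, 9330162012Rik and Gm13709 had interactions of -1.94, -1.32 and -1.36 and the unclassified locus Gm13703 had -1.28, with adjusted p of 0.0508, 0.0807, 0.102 and 0.105. Svs3b had -7.09 (adjusted p = 0.0844). In all of these but Svs3b the 3 combined libraries lay below every other library, a layout that their choice by p favours.

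Nucleotide synthesis was the subject of the study, which singled out Umps, Rrm1, Rrm2, Tyms and Ctnnb1 on these samples, so these genes are no independent evidence of a direction. Of 22 pyrimidine genes, 7 had an unadjusted p under 0.05 above additivity (7.32% of all genes) and 0 below, with a median interaction of 0.48 against 0.07 over all genes. Only Dut, which removes dUTP and so keeps uracil out of DNA, was called. It had 5.01, 4.23 and 3.54 FPKM in WT, 4.24, 3.86 and 5.03 FPKM in Pb-ERG, 4.19 and 4.05 FPKM in Trp53pcR172H/- and 16.4, 16.4 and 15.5 FPKM in the combined genotype. The single genotypes fell within or beside the WT range, and the interaction was 1.70 ± 0.25 (adjusted p = 0.0211). Rrm2, the regulated subunit of ribonucleotide reductase, had 3.03, 2.49 and 2.17 FPKM in WT, 3.64, 3.88 and 4.87 FPKM in Pb-ERG, 3.38 and 1.98 FPKM in Trp53pcR172H/- and 14.6, 38.4 and 28.8 FPKM in the combined genotype. Its combined libraries were above all others, and its interaction of 2.34 ± 0.46 did not pass (adjusted p = 0.0592). The large subunit Rrm1 had an interaction of 1.30 (adjusted p = 0.165). The thymidylate synthase gene Tyms had 0.99 (adjusted p = 0.16) and the UMP synthase gene Umps had 0.90 (adjusted p = 0.359). Both had their 3 combined libraries above all others, a layout of 8 of the 22 pyrimidine genes and of 11.9% of all genes tested. Of 18 purine synthesis genes, 2 had an unadjusted p under 0.05 above additivity and 0 below, with a median of 0.46.

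Genes of cell division lay above additivity as a group without single calls. All 48 mitosis genes tested had an interaction above 0, with a range from 0.14 to 1.41 and a median of 0.79, and 22 had an unadjusted p under 0.05 in that direction, with 0 called. Over all genes 7.32% had such a p in that direction. In 42 of 48 the combined libraries lay above all others, against 11.9% of all genes. The summed level of all 49 listed mitosis genes was 55.01 to 69.9 FPKM in WT and 79.1 to 98.9 in Pb-ERG. It was 73.6 and 94.3 in Trp53pcR172H/- and 203 to 277 in the combined genotype. The combined genotype did not overlap any other group. Mad2l1, of the spindle checkpoint, had an interaction of 1.25 and Nuf2, of the outer kinetochore, had 1.08 (adjusted p = 0.134 and 0.175). Of 41 replication genes, 39 lay above 0 with a median of 0.53, and 9 had an unadjusted p under 0.05 with 0 called. They passed the same filter, which can act on members of low level in the same way. Rfc3, of the clamp loader, had 1.0, and Mcm7, of the replicative helicase, had 0.85. Pclaf, a partner of the sliding clamp chosen after its values were seen, was called, with 0.192 to 1.08 FPKM outside the combined genotype and 4.31 to 6.81 FPKM within it (interaction 1.75, adjusted p = 0.0341).

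**Figure D4:**
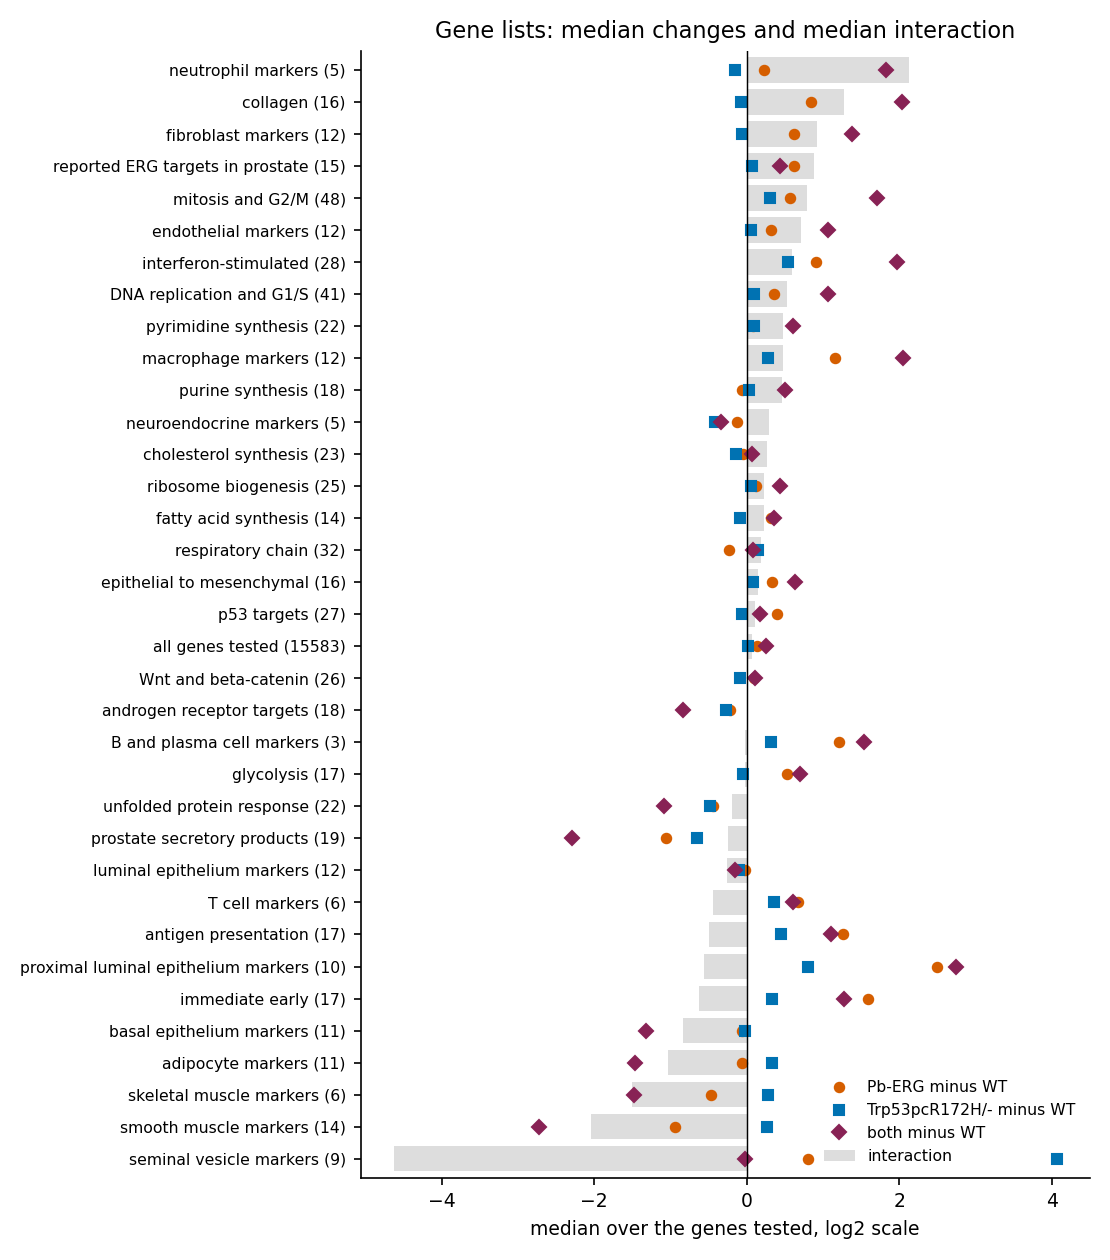
For each list, with the number of its genes tested, symbols give the median change from WT in each genotype and the grey bar gives the median interaction, all on the log2 scale. Mitosis genes had a median interaction of 0.79, collagens 1.27 and smooth muscle markers -2.04, against 0.07 over all 15583 genes.

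Beta-catenin signalling gave no common direction. Ctnnb1, which encodes beta-catenin, had 114, 103 and 132 FPKM in WT, 136, 119 and 174 FPKM in Pb-ERG, 118 and 103 FPKM in Trp53pcR172H/- and 306, 186 and 172 FPKM in the combined genotype. Replicate 3 of the combined genotype overlapped Pb-ERG, and the interaction was 0.67 ± 0.43 (adjusted p = 0.698). The median over 26 Wnt genes was 0.00, with 12 above 0. An unadjusted p under 0.05 by limma was reached by 6 above additivity (7.32% of all genes) and by 0 below it (2.7%). Axin2, Lef1, Myc and Ccnd1, which the study names as canonical beta-catenin targets, had -0.62, 1.01, 0.68 and -0.12. The Frizzled receptor genes Fzd1 and Fzd2 had 1.60 and 1.02 (adjusted p = 0.0628 and 0.143), and the secreted antagonist gene Wif1 had 2.58 (adjusted p = 0.262), with 195, 88.0 and 42.9 FPKM in the combined genotype. The p53 target list had a median of 0.11, 14 of 27 above 0, and turned below 0 under upper-quartile scaling (-0.04). Pmaip1, which promotes cell death, had 0.97 and Sesn2, a stress sensor, had -1.16.

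Reported ERG targets, the androgen program and secretion differed among themselves. Of 15 ERG targets tested, 3 had an unadjusted p under 0.05 above (7.32% of all genes) and 1 below (2.7%), with a median of 0.88. Plat, the tissue plasminogen activator, had 2.88 to 3.71 FPKM in WT, 4.63, 12.8 and 14.5 FPKM in Pb-ERG, 5.67 and 3.96 FPKM in Trp53pcR172H/- and 195, 68.8 and 66.7 FPKM in the combined genotype. Its interaction was 2.77 (adjusted p = 0.125). Sox9, a factor of prostate epithelium, had an interaction of -1.41, with 7.16, 11.1 and 15.7 FPKM in Pb-ERG and 1.53, 8.37 and 3.63 FPKM in the combined genotype. The androgen receptor targets had a median interaction of 0.00 and the secretory products -0.25, although their medians in the combined genotype were -0.84 and -2.29 relative to WT. Over the 24 alternatives the androgen list changed sign in 13, and the secretory median ran from -2.09 to 0.70, with -1.67 under the class factor of small non-coding RNA. Pbsn, which encodes probasin itself and whose promoter drives both alterations, had 8355 to 16870 FPKM in WT, 3041 to 5944 in Pb-ERG, 9571 and 16730 in Trp53pcR172H/- but 112, 605 and 2137 in the combined genotype (interaction -3.10, adjusted p = 0.492).

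The other lists carried 0 calls, where 0.468% of all genes were called, so that lists of this size need not hold any. Medians were 0.59 for interferon-stimulated genes, 0.26 for cholesterol synthesis, 0.23 for fatty acid synthesis, 0.23 for ribosome biogenesis, 0.18 for the respiratory chain and 0.14 for epithelial to mesenchymal genes. They were -0.03 for glycolysis, -0.19 for the unfolded protein response, -0.50 for antigen presentation and -0.63 for immediate early genes. Between 0 and 3 members of each of these lists had an unadjusted p under 0.05 in either direction. Over all genes 7.32% had such a p above additivity and 2.7% below it. The 3 members were of the 16 epithelial to mesenchymal genes tested and lay above additivity.

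Markers of other cell types moved with these departures. Fibroblast markers had a median interaction of 0.92, with 6 of 12 at an unadjusted p under 0.05 above additivity (7.32% of all genes) and 1 called. That gene was Thy1, a surface glycoprotein of fibroblasts and T cells, with 5.36, 6.20 and 5.98 FPKM in WT, 7.67, 6.42 and 5.11 FPKM in Pb-ERG, 7.41 and 6.13 FPKM in Trp53pcR172H/- and 51.5, 38.7 and 42.9 FPKM in the combined genotype. The combined libraries were far above an otherwise even level, and the interaction was 2.44 ± 0.29 (adjusted p = 0.00942). The defining fibroblast genes Dcn and Lum had interactions of -0.38 and -0.90. Collagens had a median of 1.27, with 9 of 16 at an unadjusted p under 0.05 above and 0 below (7.32% and 2.7% of all genes). Their summed level was 113 to 151 FPKM in WT, 217 to 350 in Pb-ERG, 118 and 119 in Trp53pcR172H/- and 541 to 929 in the combined genotype. Col5a2 had an interaction of 2.07 and Col15a1 had 1.86 (adjusted p = 0.0511 and 0.0521).

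Endothelial markers had a median of 0.71, with 6 of 12 at an unadjusted p under 0.05 above additivity, where all genes had 7.32%. Of 10 neutrophil markers 5 passed the filter, with a median of 2.13 and 3 of 5 at such a p. Ly6g had means of 0.0616, 0.547 and 0.189 FPKM in WT, Pb-ERG and Trp53pcR172H/- and 45.03 in the combined genotype. It passed the filter only through that genotype, which can raise the median and the count. The sums of all 10 markers were 1.01 to 9.80 FPKM in the 8 other libraries and 10.5, 64.05 and 179 FPKM in the combined genotype. Macrophage markers had 0.48 with 1 of 12, and T cell, B and plasma cell and neuroendocrine markers had medians of -0.45, -0.02 and 0.29. Those 3 medians cover only the 6 of 12, 3 of 10 and 5 of 9 markers that passed the filter. The defining neuroendocrine genes Chga and Syp had at most 0.293 and 0.753 FPKM in the combined genotype.

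Smooth muscle markers went the other way. All 14 had an interaction below 0, with a median of -2.04, and 9 had an unadjusted p under 0.05 below additivity (2.7% of all genes) with 0 called. Their summed level was 1763 to 2519 FPKM in WT, 474 to 2180 in Pb-ERG, 1945 and 3216 in Trp53pcR172H/- but 192, 218 and 626 in the combined genotype. Myh11, the smooth muscle myosin, had 166, 250 and 153 FPKM in WT, 184, 44.7 and 97.8 FPKM in Pb-ERG, 174 and 304 FPKM in Trp53pcR172H/- and 0.938, 3.98 and 28.1 FPKM in the combined genotype (interaction -4.16, adjusted p = 0.219). Of 11 basal epithelial markers 9 lay below 0, with a median of -0.84. Krt5, Krt15 and Krt14, keratins of basal cells, had -2.84, -2.82 and -1.98, whereas Pdpn and Dkk3 had 2.05 and 1.03. Skeletal muscle markers had -1.50 over the 6 of 14 that passed the filter. Adipocyte markers had -1.03, proximal luminal markers -0.56 and luminal markers -0.26, with Epcam at 0.92 and Hoxb13 at -0.66. The part of changed cell content in the called genes was not tested.

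**Figure D5:**
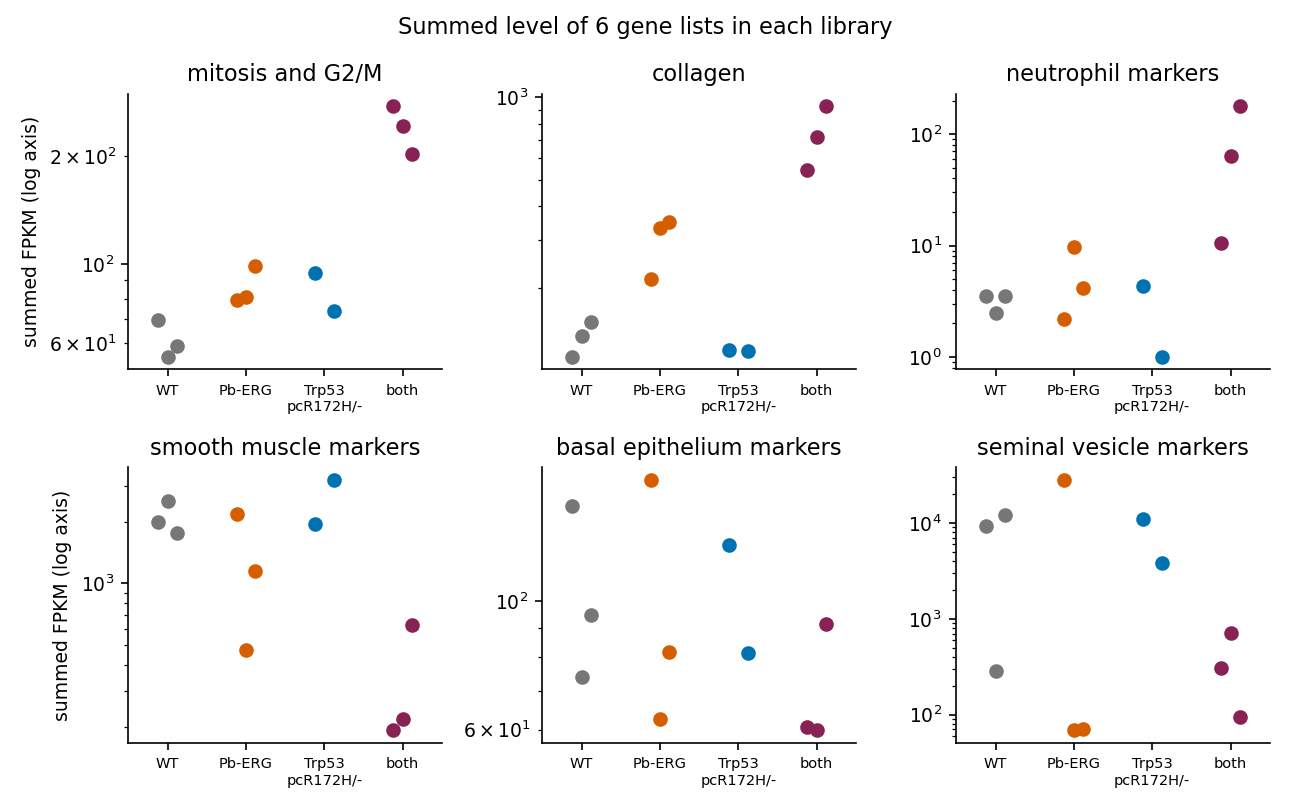
Points are libraries, with the summed FPKM of a list on a log axis, grouped by genotype. Mitosis genes were at 203 to 277 FPKM in the combined genotype against at most 98.9 elsewhere, smooth muscle markers were at 192 to 626 FPKM, and seminal vesicle markers varied widely within WT and Pb-ERG.

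The calls varied between fits. With the class of small non-coding RNA as a factor, 4 genes were called, namely Ctla2b (adjusted p = 0.014), Serpinb6b (0.014), Agtr2 (0.0399) and Sva (0.0377). Interactions of other genes stayed about as large in that fit while their adjusted p rose, with 4.99 for A2m (adjusted p = 0.126), 3.88 for Dio3 (0.0878), 2.47 for Thy1 (0.0955) and 1.72 for Dut (0.157). Leaving out 1 library gave from 6 to 193 called genes, and the fewest were called without Trp53pcR172H/- replicate 1, where the lone remaining library was assumed to vary like the other groups. Without both libraries of low share in listed genes, 18 genes were called, of which 17 were among the 73. None of the 73 changed direction in any fit that included it.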

How the data were processed

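The deposited values were FPKM for 29291 loci, computed by the authors from paired reads of TruSeq libraries aligned with STAR to GRCm38 (mm10) and counted with RSeQC. The submitters' processing notes name STAR 2.5.2b. Of the loci, 27342 matched a current symbol, 822 a synonym and 1127 were kept as written. Low FPKM lay on a grid that gave whole fragments, to within 0.0001, for 98.2% to 98.9% of values at loci under 400 bases, and the fragments served for depths and limma-voom. The precision is limited by the number of libraries.

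Log2(FPKM + 1) was fitted in limma 3.58.1 (R 4.3.3) with a mean for each group, a variance trend and empirical Bayes moderation. The interaction contrast was two-sided, with Benjamini-Hochberg adjustment over 15583 genes. Fold differences on this scale understate changes of low genes. The steps were tested on simulated data. Python 3.11.15 and pandas 2.3.3 handled the tables.

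Named genes were Erg and Trp53, 5 genes of the study, in each direction the 10 largest called interactions with a mean FPKM of at least 5 (filled up by p), up to 4 members of a list by p and 3 genes of a pattern. Other names are stated, and 1 called gene is not reported here. The members, lists and this rule were chosen with earlier results of these data known. Alternatives covered pseudocount, filter, scaling, covariates, variance model, voom and left-out libraries.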

Additional observations from a re-analysis of the deposited data

Results flagged for a closer look

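Genes are given here because the change that mutant Trp53 made in Pb-ERG mice differed from the change that it made in WT mice, by the interaction test in limma at an adjusted p under 0.05. Each value is the interaction on the log2 scale, and no explanation was tested for any of them.

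Genes of protease control, signalling and metabolism included A2m (4.88), Serpina1b (4.78), Tdo2 (4.29), Dio3 (3.92), Ctla2b (3.79), Serpinb6b (3.74), Aoc1 (3.46), Agtr2 (3.43), S100a14 (3.41), Cyp11a1 (3.40), Cyp1b1 (2.34), F2r (2.41), Ednra (2.23), Pdgfc (1.94), Igfbp3 (2.41), Gja1 (3.22), Angptl4 (2.24) and Ubtd2 (1.68). Casp1, of innate immunity, had 2.24.

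Genes of the matrix and stroma included Lox (2.57), Loxl1 (2.0), Serpinh1 (2.36), Fkbp10 (1.61), Mmp2 (2.68), Adamts4 (2.23), Adam12 (2.06), Thbs2 (3.26), Tnc (2.69), Vcan (2.31), Spon2 (2.7), Thy1 (2.44), Csrp2 (2.65), Hand2 (3.04) with RP24-459A4.1 (3.07) and RP24-459A4.3 (3.37), Wt1 (2.45), C1qtnf1 (2.22) with Gm11747 (1.99), C1qtnf5 (2.25) and C1qtnf7 (2.43). Genes of DNA synthesis and the cell cycle were Dut (1.70), Pclaf (1.75) and Cdkn2a (3.21). Small RNA genes were Rnu3b1 (4.14), Terc (2.61), Gm23650 (2.69) and Gm23751 (3.14).

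Mt4 had a fitted value of 3.16, which depends on the added value of 1 FPKM since 8 libraries were at 0. Gm5514 had 2.16 with all altered genotypes below WT. Below additivity, Sva had -4.63, Mir8107 -3.08 and Ccdc3 -1.92.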

How the results depend on the processing

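The number of called genes varied with the processing, and the cause was not tested where none is given. At an adjusted p under 0.05, 73 genes were called. The count was 239 with arrayWeights, 33 with the replicate block (of which 32 were among the 73), 24 with upper-quartile factors, 39 without a filter, 20 with a pseudocount of 0.1, 4 with a factor for the class of small non-coding RNA and 0 with limma-voom (1363 at an unadjusted p under 0.05). Among alternatives added after seeing the data, it was 17 with FPKM per fragment in listed genes and 18 without the libraries of lowest share. No library of the combined genotype was in the low class and none of Pb-ERG in the high class, so no interaction could be computed within a class. At 0.001, 0 genes were called, against 4 with arrayWeights, 1 without a filter and 1 with the stricter filter of 5 FPKM in 3 libraries.

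Leaving out 1 library gave 6 to 193 genes at 0.05 and 0 to 2 at 0.001. The count at 0.05 was 193 without replicate 3 and 35 without replicate 2 of the combined genotype. It was 31 and 35 without Pb-ERG replicates 2 and 3, 6 and 39 without Trp53pcR172H/- replicates 1 and 2, and 24, 11 and 11 without WT replicates 1, 2 and 3. A lone Trp53pcR172H/- library was assumed to vary like the other groups.

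The replicate numbers did not pair the samples of all groups. Correlations of same-numbered deviations were 0.126, 0.249 and 0.33 between Pb-ERG and the combined genotype and 0.234 and 0.351 between WT and Trp53pcR172H/-. They were 0.0013, 0.073 and -0.14 between WT and Pb-ERG and -0.022 and -0.347 between Trp53pcR172H/- and the combined genotype.

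The uncalled interaction of Trp53, -0.02, was 0.15 with arrayWeights, 0.25 with the class factor, 0.02 with a pseudocount of 0.1 and with voom, 0.0 with a pseudocount of 0.5, and -0.16 to 0.12 when 1 library was left out. That of Erg ran from -0.12 to 0.60 when 1 library was left out. Depth limits the values of Mir8107 and Gm23650, which had at most 53 and 15 fragments in a library.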
